A study of Sus scrofa with 22 samples.

Results

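The HOX genes are the 26 genes whose symbol is HOX, a cluster letter from A to D and a paralog number, and which had at least 1 matched transcript record among the 14389 genes measured here. The RefSeq gene table names 36 such pig genes. HOXA7, HOXB3, HOXC8, HOXC9, HOXC10, HOXC11, HOXD8, HOXD10, HOXD11 and HOXD12 are not analysed here. The 26 genes comprise 10 of the HOXA cluster, 7 of HOXB, 5 of HOXC and 4 of HOXD. Membership was set by symbol and not by level, but the HOX genes were chosen as a set with earlier results of these data known. All 26 passed the filter on low counts in fetuses.

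RNA was sequenced from body tissue of pig fetuses in a study of somatic cell nuclear transfer, the cloning of an animal by placing a cell nucleus into an enucleated egg. At each of day 30 and day 35 there were 2 libraries titled abnormal, 3 titled normal and 2 titled NF, short for natural fertilization. The series' design text divides the fetuses into cloned and naturally fertilized ones, so the abnormal and normal groups are clones. The labels name no genotype, breed, donor cell line or treatment for any fetus, and do not define abnormal. All fetus libraries were labelled male except day 30 NF replicate 2, labelled female. Blastocysts grown in vitro to day 6 gave a further 8 libraries, 2 each of WT, XIST-KO, WT+Kdm4A (all labelled male) and IVF (a pool of both sexes). The labels do not state whether replicates are different animals, and a p-value here reflects only how much these libraries vary.

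HOX genes encode homeodomain transcription factors that give cells their position along the head-to-tail axis and along the limb. In each cluster the genes lie in the order in which they are switched on: low paralog numbers first and furthest forward, in the hindbrain and neck, and high numbers last and furthest back, in the lumbar, sacral and tail regions and the ends of the limbs. Paralogs 1 to 3 are called anterior below (7 genes), 4 to 8 central (10 genes) and 9 to 13 posterior (9 genes), as in common usage. On Sscrofa11.1 the RefSeq table puts HOXA on chromosome 18 from 45373340 to 45480306, HOXB on chromosome 12 from 24784953 to 24950661, HOXC on chromosome 5 from 19151096 to 19268267 and HOXD on chromosome 15 from 81893997 to 81990026. The count was not stated to use strand, and 11 of the 26 genes overlap another annotated gene. HOXA5 and HOXA6 overlap each other and lie within the span of HOXA3, so reads could be shared between them. In day 30 normal replicate 1 the expected counts of HOXA5 and HOXA6 were fractional, at 1363.44 and 2475.56. Fractions of this kind arise where reads are divided between records. The expected count of HOXA3 in that library was whole, at 282.

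Each fetus library held between 3.46 and 11.54 M expected counts, except day 35 abnormal replicate 2 with 0.59 M, of which 54.17 counts fell on HOX genes. In that library 3 counts correspond to 8.09 CPM (counts scaled to a library of 1 M by edgeR), against 0.409 to 1.31 CPM in the others. It also stood apart in its transcripts, with a Spearman correlation over genes of 0.789 with its own replicate and 0.908 with day 30 NF replicate 1. EIF1AY, a Y-linked gene, was at 0 CPM in both day 35 abnormal libraries and in day 30 NF replicate 1, all labelled male, and at 33.5 CPM in day 30 NF replicate 2, labelled female. The remaining libraries held 20.5 to 52.9 CPM, so 4 libraries went against their sex labels, and groups are named below as the titles give them.

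Markers of tissues also moved with the groups. Of 8 genes listed for cultured fibroblasts 5 were measured. Their summed level was 8380 to 16400 CPM in NF libraries and 23000 CPM in day 35 abnormal replicate 2, against 703 to 1670 CPM in every other library. Summed heart markers (7 of 8 measured) were 1.22 to 6.14 CPM in NF libraries, 70.9 to 385 CPM in normal and 32.4 to 535 CPM in abnormal libraries. NKX2-5, TNNT2 and NPPA were at 0 in both day 35 NF libraries. In bulk tissue, fewer cells of a type and less RNA per cell cannot be told apart, and the part of these markers in the HOX results was not tested.

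Levels are first compared between genes as TPM, which scales for transcript length. Summed over the 26 genes, HOX expression was 946 to 1060 TPM in the 3 normal libraries of day 30 and 708 to 791 TPM in those of day 35. The abnormal libraries held 557 and 555 TPM at day 30, and 379 and 61.4 TPM at day 35, the last in the shallow replicate 2. NF libraries held the least apart from that one, 251 and 175 TPM at day 30 and 207 and 138 TPM at day 35. Normal, abnormal and NF libraries of day 30 therefore formed 3 ranges of summed level that did not overlap.

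**Figure D1:**
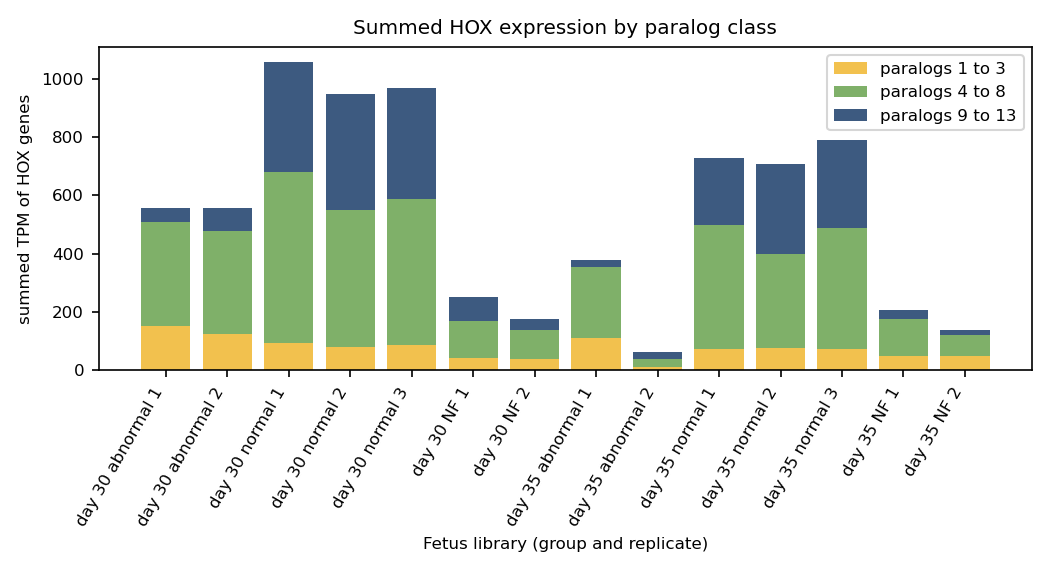
Summed TPM of the 7 anterior, 10 central and 9 posterior HOX genes (stacked bars from 0) in each of the 14 fetus libraries. The posterior part is 376 to 396 TPM in day 30 normal libraries and 47.5 and 78.3 TPM in the day 30 abnormal ones, whose anterior part is larger.

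The make-up of this sum differed as well. Posterior genes took 35.6% to 41.9% of HOX TPM in day 30 normal libraries and 31.6% to 43.9% in day 35 normal libraries. In day 30 abnormal libraries their share was 8.53% and 14.1%, and in day 35 abnormal replicate 1 it was 6.59%. The shallow replicate 2 of that group had a posterior share of 36.7%, of which HOXD13 alone gave 11.31 of 22.5 TPM. Anterior genes ran the other way: 8.28% to 8.91% and 9.19% to 10.7% in the normal groups, 27.4% and 22.7% in day 30 abnormal libraries, and 29.0% and 18.3% in day 35 abnormal ones. NF libraries had anterior shares of 16.6% and 21.5% at day 30 and of 23.5% and 35.9% at day 35. Their posterior shares were 33.2% and 20.4% at day 30 and 15.2% and 13.3% at day 35. A low posterior share was thus not particular to abnormal libraries.

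Within groups the order of genes was led by central HOXA genes. HOXA6 and HOXA5, which pattern the neck and thorax, held 213 ± 23.3 and 182 ± 17.1 TPM (SD, n = 3) in day 30 normal fetuses, and their libraries overlapped. Their expected counts were fractional, so the level of each depends on how shared reads were divided. HOXA10, a posterior gene of lumbar vertebrae and the reproductive tract, followed at 106 ± 5.1 TPM, then HOXD13, a gene of digits and the hindgut, at 94.7 ± 7.46 TPM, and HOXA11, a gene of the forearm and kidney, at 54.7 ± 2.47 TPM. Neighbours in that run from HOXA5 to HOXB6 (42.0 ± 7.43 TPM) did not overlap. In day 30 abnormal fetuses HOXA6 (76.2 ± 9.04 TPM, n = 2) and HOXB6 (74.8 ± 8.05 TPM) led with overlapping libraries and no posterior gene was among the first 6. HOXB1, a gene of the fourth segment of the hindbrain that is switched on early, was last in normal fetuses at both days, at 0.853 ± 0.3 TPM and listed at 0.

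**Figure D2:**
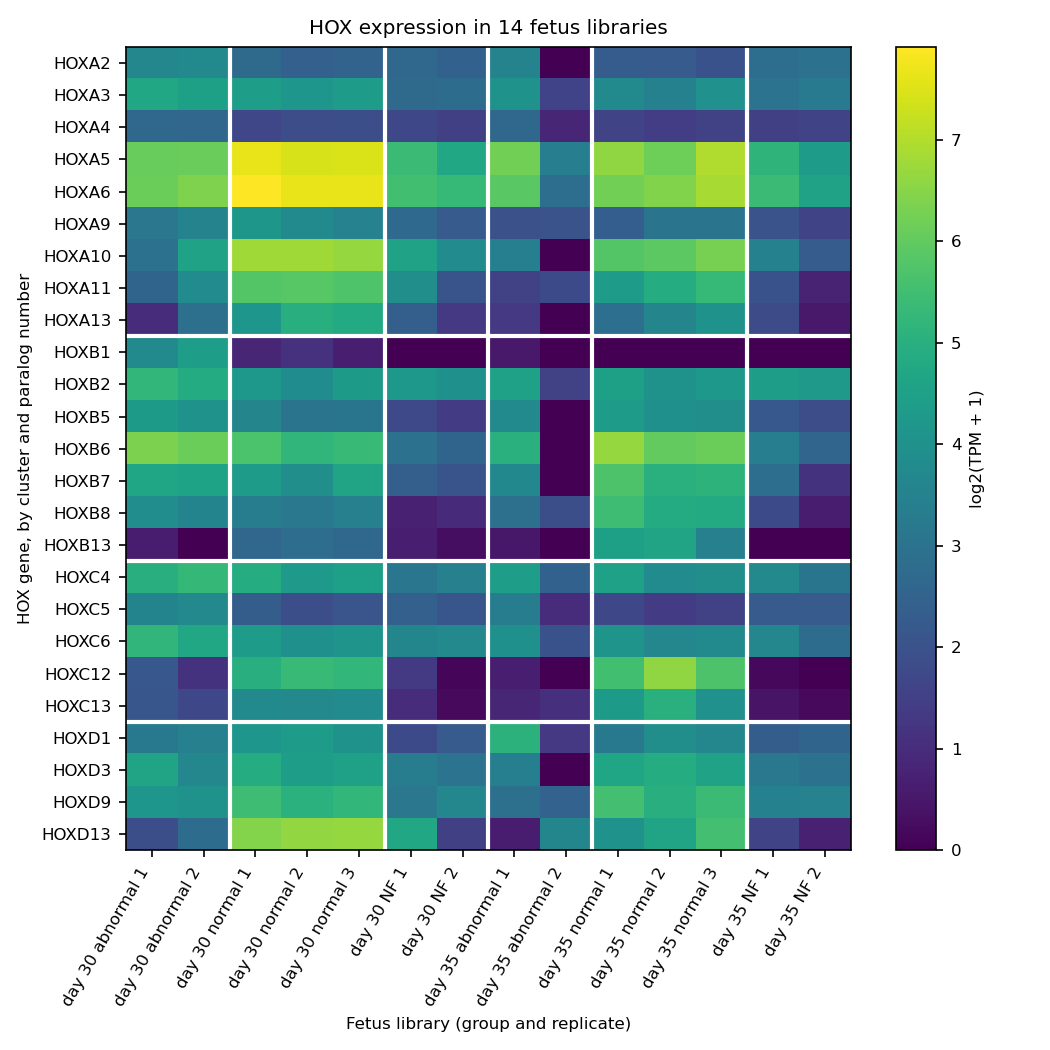
Level of 25 HOX genes as log2(TPM + 1) (colour) in each fetus library (columns), with genes in rows by cluster and paralog number. The lower rows of each cluster are brighter in normal columns than in most abnormal and NF columns, and HOXA5 and HOXA6 are the brightest rows in most columns.

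Abnormal and normal fetuses were compared to ask which transcripts separate fetuses of the 2 kinds at 1 age. At day 30 the HOX genes differed by paralog number: most posterior genes were lower in abnormal fetuses, and 3 anterior or central genes were higher. With edgeR's quasi-likelihood test, adjusted over all 9911 genes, 3 HOX genes were higher and 7 lower, 38.5% of the 26, where 15.4% of all genes passed. All 7 lower genes were posterior (7 of 9), against 6.46% of all genes lower. Of the 7 anterior genes 2 were higher, and of the 10 central genes 1, against 8.93% of all genes. The central share, 10.0%, was thus near that of all genes. The median log2 fold change was -2.43 over posterior, 1.04 over central and 1.40 over anterior genes, and -0.02 over all genes.

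**Figure D3:**
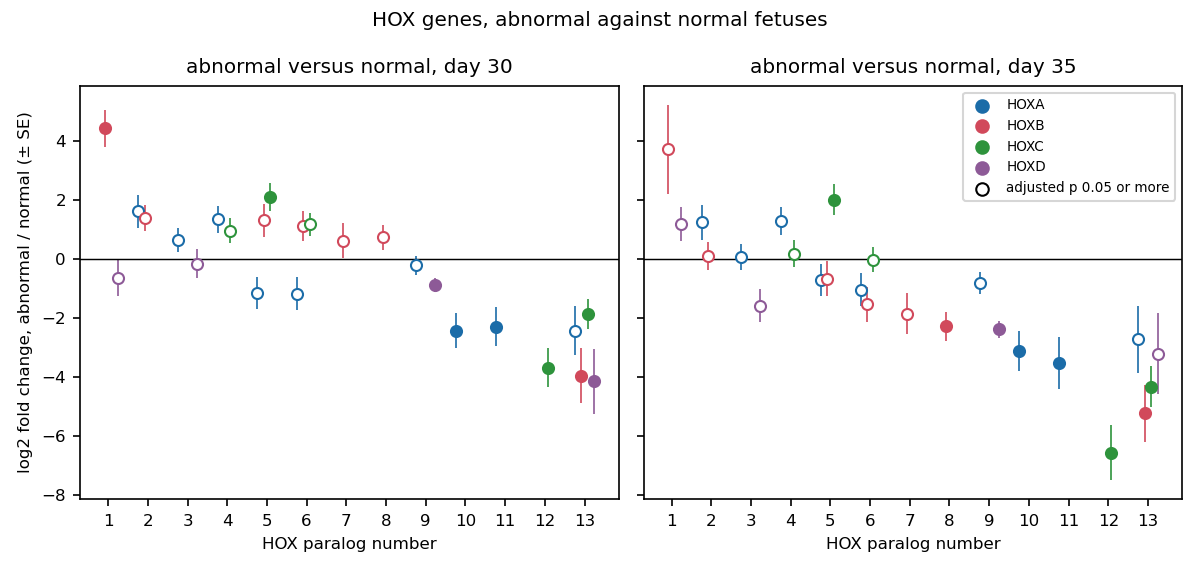
Log2 fold change of 25 HOX genes, abnormal over normal (vertical), against paralog number (horizontal), at day 30 and day 35. Bars are ± SE, derived from the F statistic of the edgeR test. Filled points had an adjusted p under 0.05. Points fall from left to right in both panels, and all 9 genes numbered 9 to 13 lie below 0 at both days. The points of HOXB13 at both days and of HOXB1, HOXC12 and HOXA13 at day 35, with 1 to 3 counts in the abnormal group, do not measure a size.

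HOXC12, a gene of the most posterior trunk, gave 5.68 and 2.14 CPM in day 30 abnormal libraries and 41.7, 56.2 and 52.6 CPM in normal ones. The ranges did not come near each other, and the log2 fold change was -3.68 ± 0.67 (SE, edgeR adjusted p = 0.00595). HOXC13, needed for hair and nails, gave 8.3 and 5.99 against 25.6, 26.0 and 27.1 CPM (-1.87 ± 0.51, edgeR adjusted p = 0.0327). Its normal libraries were close to each other and all above the abnormal ones.

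HOXD13 had the largest difference in CPM among the 13th paralogs, with 6.55 and 15 CPM in abnormal and 168, 202 and 201 CPM in normal libraries (-4.14 ± 1.10, edgeR adjusted p = 0.0286). HOXB13, a gene of the tail end of the trunk, had 1 count in the abnormal group and 61 in the normal group, a ratio of normal to abnormal of 17.5 (95% counting interval 3.02 to 702, edgeR adjusted p = 0.0197). HOXA13, which works with HOXD13 in digits, gave 0.437 and 2.99 against 6.27, 11.7 and 10.1 CPM and missed the threshold (-2.43 ± 0.82, edgeR adjusted p = 0.0659). All 4 genes numbered 13 thus had lower libraries in the abnormal group with no overlap.

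HOXA10 gave 24 and 61.6 CPM in abnormal and 236, 235 and 220 CPM in normal libraries (-2.43 ± 0.60, edgeR adjusted p = 0.0211). HOXA11 gave 10.9 and 30.8 against 100.0, 110 and 99.4 CPM (-2.30 ± 0.66, edgeR adjusted p = 0.0374). In both genes abnormal replicate 2 was higher than replicate 1, while the normal libraries were close together. The group 9 paralogs had the smallest estimates of the posterior class: HOXD9 gave 49.8 and 48.7 against 102, 79.8 and 90.2 CPM (-0.88 ± 0.24, edgeR adjusted p = 0.0338), and HOXA9 overlapped between groups (-0.22 ± 0.32, edgeR adjusted p = 0.665).

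Among anterior genes HOXB1 gave 9.17 and 15.4 CPM in abnormal and 0.482, 0.761 and 0.369 CPM in normal libraries (4.42 ± 0.64, edgeR adjusted p = 0.00639). It was several-fold higher in each abnormal library than in any normal one. HOXD1, of the same paralog group, did not pass and lay the other way, with 14.9 and 18.8 against 25.3, 30.1 and 23.8 CPM (-0.65 ± 0.61, edgeR adjusted p = 0.501).

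HOXA2 and HOXB2, genes of the second pharyngeal arch and hindbrain, were at 30.6 and 35.9 against 9.9 to 12.3 CPM and at 80.4 and 84.2 against 28 to 33.3 CPM. Their groups did not overlap, but neither passed (1.61 ± 0.56, edgeR adjusted p = 0.0747, and 1.40 ± 0.44, edgeR adjusted p = 0.0535). The group 3 paralogs HOXA3, needed for the thymus and parathyroid, and HOXD3 did not pass, at 0.63 ± 0.41 and -0.16 ± 0.50.

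Among central genes the estimates of HOXB and HOXC members were positive, and those of 2 of 3 HOXA members were negative. HOXC5 gave 28.8 and 34.2 CPM in abnormal and 8.68, 6.24 and 7.2 CPM in normal libraries and was the central gene that passed (2.10 ± 0.48, edgeR adjusted p = 0.0167). HOXA4, HOXB5, HOXB6, HOXB7, HOXB8, HOXC4 and HOXC6 had positive fold changes between 0.62 and 1.34 and did not pass. HOXA5 and HOXA6 had negative ones, -1.15 ± 0.54 and -1.18 ± 0.56, with all abnormal libraries below all normal ones (for HOXA5, 132 and 143 against 292 to 329 CPM). Of the 26 genes 13 had every abnormal library above every normal one, against 30.9% of all genes, and 11 had every one below, against 33.3%, so that 92.3% had groups that did not overlap where 64.2% of all genes did. The number of calls rested on single libraries: 1 remained without abnormal replicate 2, 4 without abnormal replicate 1, 5 without normal replicate 1 and 3 without normal replicate 2 or 3, whereas 21 passed without either day 35 abnormal library. With DESeq2 7 were higher and 8 lower, and on the TPM scale with limma 2 were higher and 8 lower; all 9 posterior fold changes were negative with both tools, and 8 of 9 without abnormal replicate 1, where HOXA9 was at 0.01.

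At day 35 most posterior genes were again lower in abnormal fetuses. Of the 26 genes 2 were higher and 7 lower, 34.6%, where 23.2% of all genes passed (10.9% higher and 12.3% lower). The 7 lower genes were 6 of the 9 posterior genes and the central gene HOXB8, and the posterior median was -3.21. HOXA10, HOXA11, HOXB13, HOXC12, HOXC13 and HOXD9 were lower at both days, and 2 genes, among them HOXC5, were higher at both. The day 35 abnormal group held the shallow library and both of its libraries lacked EIF1AY, and whether that bears on these genes was not tested.

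HOXC12 had 3 counts in the abnormal group and 1470 in the normal group, a ratio of normal to abnormal of 94.8 (95% counting interval 32.4 to 460, edgeR adjusted p = 0.0011). HOXB13 had 1 against 211 counts, a ratio of 40.8 (7.25 to 1620, edgeR adjusted p = 0.00483). The normal libraries held 71.6, 140 and 76.9 CPM of HOXC12 and 16.1, 16.6 and 7.08 CPM of HOXB13. Both genes were thus near the detection limit in abnormal replicate 1 (1.15 and 0.384 CPM) and clearly present in normal fetuses of the same age. Neither had a count in the shallow abnormal replicate 2. There 3 counts are 8.09 CPM, above the 7.08 CPM of HOXB13 in normal replicate 3, so its lack of counts says little of HOXB13.

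HOXC13 gave 2.3 and 2.7 against 43.9, 67.7 and 33.3 CPM (-4.33 ± 0.69, edgeR adjusted p = 0.00196). HOXA10 gave 25.3 and 0 against 129, 137 and 218 CPM (-3.12 ± 0.68, edgeR adjusted p = 0.00855), and HOXA11 gave 4.99 and 5.4 against 41.2, 56.5 and 77.6 CPM (-3.52 ± 0.88, edgeR adjusted p = 0.0162). HOXD9 gave 22.3 and 13.5 against 126, 78.4 and 106 CPM (-2.39 ± 0.29, edgeR adjusted p = 0.000518). Each of the 4 genes was lower in both abnormal libraries than in any normal one.

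HOXD13 gave 1.53 and 27.0 against 34.8, 49.8 and 97 CPM and did not pass (-3.21 ± 1.38, edgeR adjusted p = 0.117). HOXA13 had 2 counts against 65 and did not pass either (edgeR adjusted p = 0.102). In the shallow replicate 2 HOXD13 was the highest HOX gene in CPM, on 54.17 HOX counts in all.

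HOXC5 gave 28.4 and 2.7 CPM in abnormal and 5.72, 3.75 and 4.57 CPM in normal libraries (2.01 ± 0.51, edgeR adjusted p = 0.0176), so the groups overlapped although the gene passed. The call rests on replicate 1: without it the log2 fold change was -0.81. HOXB1 had 1 count in replicate 1 and none in any normal library, so nothing can be read of it at this age. In 14 HOX genes, 53.8%, every abnormal library was below every normal one, against 25.9% of all genes, and in none was every one above, against 17.1%; either held for 43.0% of all genes. Without abnormal replicate 2, 7 genes were higher and 9 lower; without replicate 1 all 16 that passed were lower, and on the TPM scale 1 was higher and 12 lower.

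HOXB8, a gene of the thorax, differed between the days. It gave 27.5 and 22.7 CPM in day 30 abnormal and 15, 13.7 and 16.8 CPM in day 30 normal libraries (0.73 ± 0.42, edgeR adjusted p = 0.269). At day 35 it gave 15 and 5.4 against 80.5, 49.6 and 49.5 CPM (-2.29 ± 0.50, edgeR adjusted p = 0.00868). The abnormal libraries were thus above the normal ones at day 30 and below them at day 35. The difference between the days, tested as an interaction, was -3.01 ± 0.65 (edgeR adjusted p = 0.031), and for HOXD9 it was -1.51 ± 0.37 (edgeR adjusted p = 0.0455).

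Those were 2 of 26 genes, 7.69%, both negative, where 4.05% of all genes passed and 2.73% were negative. All 7 HOXB and all 5 HOXC interaction estimates were negative, with medians of -1.98 and -1.22, and 8 of 10 HOXA estimates were, with a median of -0.47. HOXD was split, with HOXD1 and HOXD13 at 1.83 and 0.93 and HOXD3 and HOXD9 at -1.42 and -1.51. HOXB6 and HOXB7 did not pass (-2.65 ± 0.79, edgeR adjusted p = 0.0839, and -2.47 ± 0.90, edgeR adjusted p = 0.14). No HOX gene passed when any of the day 30 abnormal or normal libraries, or day 35 normal replicate 1 or 3, was left out; HOXD9 alone remained without day 35 normal replicate 2, and HOXB8 alone without either day 35 NF library. Without day 35 abnormal replicate 1, 14 genes passed, all negative, and without its replicate 2, 4 passed.

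**Figure D4:**
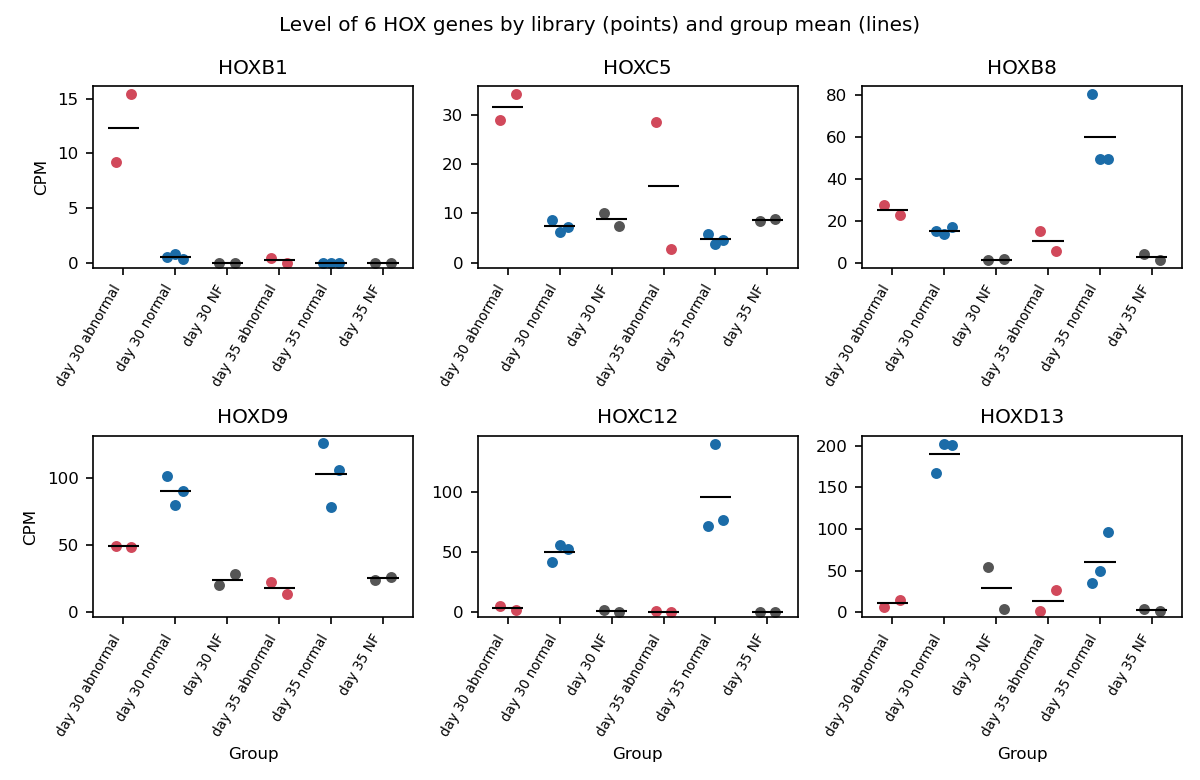
CPM (vertical axis, linear from 0) of HOXB1, HOXC5, HOXB8, HOXD9, HOXC12 and HOXD13 by library (points) in the 6 fetus groups, with the group mean as a line. HOXB1 and HOXC5 are high in both day 30 abnormal libraries, HOXC5 also in 1 of the 2 of day 35, HOXB8 is high in day 35 normal libraries, and HOXC12 and HOXD13 are high in normal libraries.

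Normal fetuses of day 35 and day 30 were compared to describe HOX genes with age. Of 26 genes 2 were higher and 2 lower, 15.4%, where 9.19% of all genes passed, 5.35% higher and 3.84% lower. HOXB8 rose from 13.7 to 16.8 CPM at day 30 to 49.5 to 80.5 CPM at day 35 (1.98 ± 0.38, edgeR adjusted p = 0.0139), and HOXB13 rose from 3.38, 4.26 and 3.51 CPM to 16.1, 16.6 and 7.08 CPM (1.83 ± 0.48, edgeR adjusted p = 0.0429). HOXA9 fell from 52.1, 40.0 and 32.8 CPM to 14.6, 23.9 and 24 CPM (-1.0 ± 0.28, edgeR adjusted p = 0.0479). HOXB1 fell from 2, 5 and 2 counts to 0, at least 2.76-fold against 3 counts over the group (edgeR adjusted p = 0.0494).

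All 10 HOXA genes had negative estimates, with a median of -0.65, and 6 of 7 HOXB genes had positive ones, with a median of 1.05, against 0.07 over all genes. HOXC and HOXD were mixed, with 2 of 5 and 2 of 4 positive and medians of -0.16 and -0.15. HOXB2, HOXB5, HOXB6 and HOXB7 gave 0.41 ± 0.40, 1.05 ± 0.50, 1.01 ± 0.47 and 1.15 ± 0.52 and did not pass. As a share of HOX TPM, HOXB genes took 10.7%, 9.09% and 11.0% at day 30 and 35.2%, 25.1% and 21.8% at day 35, and HOXA genes took 61.7% to 63.7% and then 37.7% to 51.0%. The count was 0 without day 30 normal replicate 1 or 2 or day 35 normal replicate 1 (edgeR), 1 without day 30 normal replicate 3, day 35 normal replicate 2 or either day 35 NF library, 2 without day 35 normal replicate 3 or either day 30 abnormal library, and 9 without either day 35 abnormal library. With all libraries 3 genes in each direction had an unadjusted p under 0.05, and DESeq2 and limma each called 2 higher and 1 lower.

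Normal fetuses were compared with NF fetuses to set cloned against fertilized tissue of 1 age. Nearly all posterior HOX genes and most central ones were higher in normal fetuses, while several low-numbered genes differed little. At day 30, 19 of 26 genes were higher, 73.1%, where 29.3% of all genes passed, 14% higher and 15.3% lower. At day 35, 16 were higher, 61.5%, where 42.3% of all genes passed, 22.1% higher and 20.1% lower. No HOX gene was lower at either day with edgeR, DESeq2 or limma, or at an unadjusted p under 0.05 with edgeR; without either day 35 abnormal library, 2 (HOXA2 and HOXC5) were lower and 19 higher at day 35, and in a fit of only the compared groups 1 (HOXA2) was lower and 18 higher. At both days 15 genes passed, among them 8 posterior ones.

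**Figure D5:**
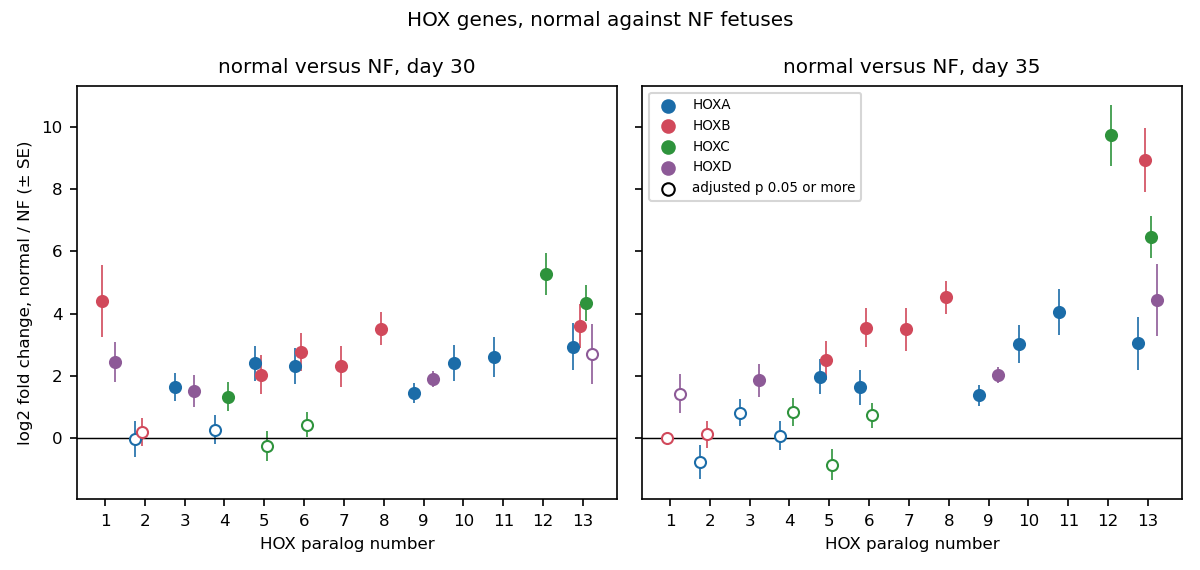
Log2 fold change of 25 HOX genes, normal over NF (vertical), against paralog number (horizontal), at day 30 and day 35. Bars are ± SE, derived from the F statistic of the edgeR test. Filled points had an adjusted p under 0.05. All 9 genes numbered 9 to 13 lie above 0 at both days, and genes numbered 1 and 2 lie between -0.77 and 1.43 apart from HOXB1 and HOXD1 of day 30. The points of HOXB1 at day 30 and of HOXC12 and HOXB13 at day 35, with 0 or 1 count in the NF group, do not measure a size.

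By class, 4 of 7 anterior, 7 of 10 central and 8 of 9 posterior genes were higher at day 30, and 1, 6 and 9 at day 35. The class medians were 1.51, 2.17 and 2.69 at day 30 and 0.34, 1.80 and 4.04 at day 35. HOXA2, HOXA4, HOXB2, HOXC5 and HOXC6 were among those that passed at neither day. HOXA2, for example, gave 12.3, 9.9 and 10.5 CPM in normal and 12.1 and 10.1 CPM in NF libraries of day 30 (-0.03 ± 0.57, edgeR adjusted p = 0.98).

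HOXC12 gave 2.32 and 0.152 CPM in NF libraries of day 30, below every normal library (5.27 ± 0.69, edgeR adjusted p = 0.000555). At day 35 it had 1 count in the NF group, and the ratio of normal to NF was 1100 (95% counting interval 198 to 43700, edgeR adjusted p = 8.97e-05). HOXC13 gave 2.18 and 0.305 CPM in NF at day 30 and 0.684 and 0.349 CPM at day 35 (4.34 ± 0.58, edgeR adjusted p = 0.000606, and 6.47 ± 0.67, edgeR adjusted p = 0.000103). HOXB13 was at 0 in both NF libraries of day 35 and at least 51.2-fold higher in normal fetuses, against 3 counts over the NF group (edgeR adjusted p = 0.000216).

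HOXB8, at 1.09 and 1.52 CPM in NF libraries of day 30 and 4.1 and 1.05 CPM at day 35, was 3.51 ± 0.53 (edgeR adjusted p = 0.0011) and 4.52 ± 0.52 (edgeR adjusted p = 0.000164) higher on the log2 scale in normal fetuses. HOXD9 was at 20.2 and 28.5 CPM and 24.5 and 26.2 CPM in NF libraries (1.89 ± 0.25, edgeR adjusted p = 0.000573, and 2.03 ± 0.25, edgeR adjusted p = 0.00022). Neither gene overlapped between normal and NF libraries at either day.

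HOXD13 separated the 2 NF libraries of day 30, at 55.1 CPM in replicate 1 and 3.66 CPM in replicate 2, and did not pass (2.69 ± 0.96, edgeR adjusted p = 0.0545). HOXA11 did likewise, at 28 and 5.95 CPM, and passed (2.60 ± 0.64, edgeR adjusted p = 0.0122). These are the libraries whose EIF1AY went against their labels. At day 30, 12 genes were called without NF replicate 1 and 4 without NF replicate 2; at day 35, 9 were called without NF replicate 2. All NF libraries were high in the summed markers of cultured fibroblasts and low in those of heart, and summed neuron genes were 330 to 575 CPM in NF against 1430 to 3390 CPM in normal fetuses; their part in the HOX differences was not tested.

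Abnormal fetuses were also set against NF fetuses, which shares libraries with the comparisons above. At day 30, 15 of 26 HOX genes were higher, 57.7%, where 30.0% of all genes passed, 15.5% higher and 14.5% lower. Central genes led, with 8 of 10 higher, followed by 4 of 7 anterior and 3 of 9 posterior genes (HOXA9, HOXC13 and HOXD9). No HOX gene was lower with edgeR, DESeq2 or limma, or at an unadjusted p under 0.05 with edgeR. HOXB1, undetected in NF libraries, was at least 56.9-fold higher against 3 counts over the NF group (edgeR adjusted p = 0.00236), and HOXB8 was 4.24 ± 0.56 higher on the log2 scale (edgeR adjusted p = 0.00111). HOXA10 (24 and 61.6 against 55.7 and 31.4 CPM) and HOXD13 (6.55 and 15 against 55.1 and 3.66 CPM) overlapped, at -0.02 ± 0.61 and -1.45 ± 1.09. Without abnormal replicate 1 or 2 the count was 9 or 7, and without NF replicate 2 it was 8.

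At day 35, 4 genes were higher in abnormal than in NF fetuses, 15.4%, where 23.2% of all genes passed, 13% higher and 10.2% lower. Among the 4 were HOXB6, HOXB8 and HOXD1. HOXD1, a gene of sensory neurons, gave 69.1 and 2.7 CPM in abnormal and 6.16 and 7.69 CPM in NF libraries (2.61 ± 0.69, edgeR adjusted p = 0.0225). The share was near that of all genes, and HOXB6 and HOXD1 turned negative without abnormal replicate 1. The count was 3, all lower, without that library, 15, all higher, without abnormal replicate 2, and 1 and 0 without NF replicate 1 and 2. With all libraries 7 genes were higher and none lower at an unadjusted p under 0.05 (edgeR), DESeq2 called 5 and limma 0.

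Genes known to act on or with HOX genes were read from lists, which were chosen with earlier results of these data known. TALE homeodomain proteins bind DNA together with HOX proteins, and 3 of 9 were measured. MEIS1 and PBX2 did not pass in abnormal against normal fetuses (edgeR adjusted p between 0.205 and 0.882 at day 30 and between 0.11 and 0.803 at day 35), while MEIS1 was higher in normal than in NF fetuses at both days (1.21 ± 0.26 and 1.05 ± 0.26, edgeR adjusted p = 0.0066 and 0.00886). Retinoic acid and the caudal factors switch HOX genes on, and 10 of 23 listed genes were tested. In abnormal against normal fetuses 2 were higher and 1 lower at day 30, and 1 and 2 at day 35, where 15.4% and 23.2% of all genes passed. CDX2, a caudal factor, was at 2.59 ± 0.0393 CPM (n = 2) in day 30 abnormal and at 0 in normal libraries (edgeR adjusted p = 0.0231), and RARA, a retinoic acid receptor, was 0.76 ± 0.19 higher (edgeR adjusted p = 0.0225). RXRG, a retinoid X receptor, was lower at both days (-2.96 ± 0.48 and -2.08 ± 0.49, edgeR adjusted p = 0.00334 and 0.0124). Against NF, 5 of the list were higher and 1 lower in normal fetuses at day 30, and 8 and 1 at day 35, where 29.3% and 42.3% of all genes passed.

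Polycomb proteins keep HOX genes silent and Trithorax proteins keep them active. Of 12 Polycomb genes tested, 1 was higher and 2 lower in abnormal fetuses at day 30, among them EZH2, which methylates histone H3 (-0.97 ± 0.22, edgeR adjusted p = 0.0157), and EED, its partner (-1.32 ± 0.34, edgeR adjusted p = 0.0251), while CBX7 was higher (2.91 ± 0.72, edgeR adjusted p = 0.0218). At day 35, 1 was higher (RNF2) and 1 lower (RING1), where 15.4% and 23.2% of all genes passed at the 2 days. Of 6 Trithorax genes 1 was lower at day 30 (ASH2L, -0.95 ± 0.16, edgeR adjusted p = 0.00426) and 2 at day 35 (KMT2B and RBBP5).

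Genes that mark regions of the body were read beside the HOX classes in abnormal against normal fetuses, where 8.93% of all genes were higher and 6.46% lower at day 30, and 10.9% and 12.3% at day 35. Of 8 tested regulators of the forebrain and midbrain, where HOX genes are silent, 4 were higher at day 30 (EN2, OTX1, OTX2 and SIX6) and 4 at day 35 (DLX2, EN2, OTX1 and OTX2). Their summed level overlapped at day 30, with 111 and 61.6 CPM in abnormal and 84.7 to 107 CPM in normal libraries. Of 4 trunk mesoderm genes 2 were lower at each day, PAX9 by -5.06 ± 0.65 at day 30 (edgeR adjusted p = 0.00106). Of 7 limb genes 2 were lower at day 30, TBX4 of the hindlimb (-4.55 ± 1.30, edgeR adjusted p = 0.0375) and LMX1B of the dorsal limb (-2.76 ± 0.80, edgeR adjusted p = 0.0396), and 1 was higher and 1 lower at day 35 (TBX5 and SHH). Of 9 spinal and hindbrain neuron genes 5 were lower at day 30 and 7 at day 35.

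Tissue markers were counted in the same comparisons. Of 6 skeletal muscle markers 5 and then 6 were lower in abnormal fetuses. Summed muscle markers were 52.9 and 84.7 CPM in day 30 abnormal against 219 to 293 CPM in normal libraries, and 8.44 and 86.3 against 515 to 1040 CPM at day 35. Of 6 heart markers tested 4 were higher at day 30, and 1 higher and 1 lower at day 35. Of 8 fetal liver markers 5 were higher at day 30, and 1 higher and 2 lower at day 35. Their sum was 49.8 and 1720 CPM in the day 30 abnormal libraries against 73.1 to 105 CPM in normal ones. The summed level was therefore raised in abnormal replicate 2 only, with replicate 1 below every normal library. Of 5 extraembryonic markers 3 were higher at day 30, and 1 higher and 1 lower at day 35. Of 8 erythroid markers 3 were higher and 3 lower at day 35. Of 5 cultured fibroblast markers 1 was higher at day 30 and 5 at day 35. The part of any of these in the HOX differences was not tested.

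In day 6 blastocysts the summed HOX level was low. HOX counts were 1.52 to 56.8 in each 1 M gene counts, against 133 to 2340 in fetus libraries, and 16 of the 26 genes had a count in any of the 8 libraries. HOXA4 held the most, 553 counts, with 205 and 121 in WT+Kdm4A, 2 and 48 in WT, 99 and 0 in XIST-KO, and 11 and 67 in IVF. HOXD1 (307 counts), HOXC13 (291) and HOXD9 (163) followed. In some libraries single genes had TPM values as high as in some fetuses. HOXA4 was at 2.77 and 1.73 TPM in WT+Kdm4A and at 0.5 and 3.31 TPM in IVF libraries. Day 30 normal fetuses held 2.19 to 2.76 TPM. Blastocyst libraries were made from cDNA and fetus libraries from total RNA. The part of this in the levels compared here was not tested. For HOXA4 the replicates of WT, of XIST-KO and of IVF lay far apart, and no test was made. HOXA5, HOXA6 and HOXA10, among the leading genes of normal fetuses, had no count in any blastocyst library.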

How the data were processed

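The authors deposited 1 table per library with 65927 transcript records, each with an expected count and a TPM per the file headers. RSEM 1.2.4 and the builds Sscrofa11.1 and susScr11 are named in the submitters' processing notes; alignment and read filtering were not given in the sources used here. Libraries were made with NEBNext kits, from total RNA for fetuses and from cDNA for embryos, per the labels' protocols.

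Records were matched to genes of the RefSeq table (Sscrofa11.1) by accession without version: 25305 records (38.4%) in 14389 genes, and 4758 (7.2%) with the version. Matched records held 66.0% to 69.0% of fetus counts. HOX genes can miss transcripts: HOXA10 had 7 of 14 and HOXA3 2 of 10 matched. Expected counts and TPM were summed per gene, counts were rounded, and all 14 fetus libraries were fitted together by group (edgeR 4.0.16, R 4.3.3; filterByExpr, TMM, quasi-likelihood F-test, Benjamini-Hochberg at 0.05 over 9911 genes); higher and lower mean passing that threshold. The biological coefficient of variation was 0.29. Each SE of a log2 fold change is its absolute value divided by the square root of the F statistic. It is an approximation that edgeR itself does not report, and is unreliable where a group has almost no counts. On a single simulated data set for abnormal against normal at day 30 (9670 genes), 77% of 4-fold and 84% of 8-fold changes were recovered, with 0.05% of unchanged genes called. Changes were placed only in genes above a cut on mean CPM, and all groups otherwise shared the same mean. The simulation therefore does not cover the lowest HOX genes or libraries that stand apart from their group.

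Full statistics were given to HOX genes that passed, up to 12 per comparison by size of change, and to up to 4 passing genes of each other list. Groups with 0 counts are compared with a floor of 3 counts over the group, and groups with 1 to 3 counts by the ratio of summed counts with an exact interval; these limits reflect counting alone. The other settings tried were no count filter, RLE size factors, DESeq2 1.42.0, limma 3.58.1 on log2(TPM + 1), only the compared groups, the replicate number as a block, matching with version, each library left out in turn and, added after seeing the data, both doubted libraries left out (day 35 abnormal replicate 2 and day 30 NF replicate 1). Of the genes counted, 1 HOX gene and 1 cofactor are not reported here by name or plotted singly. HOX genes and all lists were chosen with earlier results of these data known. Figures used Python 3.11.15, pandas 2.3.3, numpy 2.4.6 and matplotlib 3.10.9.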

Additional observations from a re-analysis of the deposited data

Results flagged for a closer look

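The difference between abnormal and normal fetuses was not the same at the 2 days for 2 HOX genes, by the interaction test of edgeR. For HOXB8 the day 35 difference minus the day 30 difference was -3.01 on the log2 scale (adjusted p = 0.031), as its level was higher in both abnormal libraries at day 30 and lower in both at day 35. For HOXD9 it was -1.51 (adjusted p = 0.0455), with lower abnormal libraries at both days and a wider gap at day 35.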

How the results depend on the processing

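Counts of HOX genes called were recomputed for 8 comparisons under 8 settings besides leaving out single libraries; 38 of 64 counts stayed within 1.5 times. In the order abnormal against normal at day 30 (10 called), at day 35 (9), normal against NF at day 30 (19) and day 35 (16), abnormal against NF at day 30 (15) and day 35 (4), day 35 against day 30 in normal fetuses (4) and the interaction (2), matching with the version, which leaves 7 HOX genes, gave 3, 3, 6, 6, 3, 1, 1 and 1. A fit of only the compared groups gave 23 and 4 for abnormal against normal, 0 for abnormal against NF at day 35, 14 for the day effect and 1 for the interaction. On the TPM scale abnormal against NF gave 8 and 0. Without a count filter the day effect and the interaction gave 1 each. With both doubted libraries left out, a setting chosen after seeing the data, abnormal against normal gave 21 and 16, abnormal against NF at day 35 15, the day effect 12 and the interaction 6. Some of these settings also remove genes or libraries, and the cause of the shifts was not tested.

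No label says that the replicate numbers pair samples, and same-numbered libraries deviated from their group means with correlations of -0.072 to 0.148. In groups of 2 libraries these deviations mirror each other, so the correlations cannot settle whether samples are paired by replicate number. With the number as a block, abnormal against normal at day 30 gave 5, abnormal against NF at day 35 2, and the day effect and the interaction 1 each.

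Leaving out each library in turn gave 1 to 21 and 8 to 16 for abnormal against normal at day 30 and day 35, 4 to 21 and 9 to 21 for normal against NF, 7 to 20 and 0 to 15 for abnormal against NF, 0 to 9 for the day effect and 0 to 14 for the interaction. Without day 35 abnormal replicate 1, HOXC5 reversed to -0.81 against normal fetuses, and HOXB6 and HOXD1 to -8.24 and -1.41 against NF; HOXB6 against NF was also -0.47 on the TPM scale. Without day 35 abnormal replicate 2 these values were 2.63 against normal fetuses, and 2.57 and 3.31 against NF. Of 1601 recomputed values of named genes 1321 kept their call, 276 lost it and 4 reversed. On the TPM scale the median of all genes was -0.27 and -0.32 for abnormal against normal, where edgeR gave -0.02 and 0.0; relative to it the HOX median was 0.19 and -1.86, against 0.25 and -0.92. RLE size factors called 2 higher and 1 lower for the day effect. Day 35 abnormal replicate 2, where 3 counts are 8.09 CPM, limits what can be read of low HOX genes at day 35.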

Other observations

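LOC102160006, a long non-coding RNA on chromosome 18 from 45384466 to 45388260, between HOXA13 and HOXA11, was at 1.92 ± 2.72 CPM (SD, n = 2) in day 30 abnormal, 56.8 ± 15.3 CPM (n = 3) in normal and 7.07 ± 8.92 CPM (n = 2) in NF fetuses. At day 35 it was at 0.767 ± 1.09 CPM in abnormal, 36.5 ± 12.2 CPM in normal and 1.2 ± 0.96 CPM in NF fetuses. Its log2 fold change, abnormal over normal, was -4.85 at day 30 and -4.78 at day 35 (edgeR adjusted p = 0.0187 and 0.0312), and 2.99 and 4.89 for normal over NF (edgeR adjusted p = 0.03 and 0.00495). It passed in the direction of HOXA11 in all 4 comparisons, while HOXA13 passed in the comparisons with NF only. Reads cannot be assigned to a strand here.

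The 3 nearest measured genes on each side of each cluster gave mixed values, with 17 of them tested. In abnormal against normal fetuses 4 were higher and 3 lower at day 30. That is a larger share than the 15.4% of all genes and close to the 38.5% of HOX genes. At day 35, 2 were higher and 1 lower, a smaller share than the 23.2% of all genes. CALCOCO2, 99.3 kb from HOXB, was higher at both days (0.78 and 0.89, edgeR adjusted p = 0.0142 and 0.00605). CBX1, 434 kb from HOXB, was lower at day 30 (-0.87, edgeR adjusted p = 0.0126) and higher in normal than in NF fetuses at both days (1.2 and 0.77, edgeR adjusted p = 0.00132 and 0.00725). SNX11, 424 kb from HOXB, was lower at day 35 (-1.74, edgeR adjusted p = 0.00123). EVX1, a homeobox gene 42.1 kb beyond HOXA13, had 47 counts in normal and 1 in NF fetuses at day 35, a ratio of 35.3 (95% counting interval 6.04 to 1420, edgeR adjusted p = 0.0184), and did not pass in abnormal against normal fetuses (adjusted p = 0.709 and 0.0907). MTX2, 71.4 kb from the HOXD cluster, was at -0.08 and 0.11 between abnormal and normal fetuses, and LNPK, 88.3 kb away on the other side, at -0.15 and 0.04, none of which passed. SNX10, 584 kb from the anterior end of HOXA, was at -1.22 and -0.11 and did not pass either.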
